A study of Drosophila melanogaster with 4 samples.

Results

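The region described is a window of 160 kb on chromosome arm 3R of Drosophila melanogaster, from 17190000 to 17350000 on FlyBase release 5, named for a cluster of 6 homeobox genes, tin, bap, lbe, lbl, C15 and slou. Its members are the TCF peaks of the deposited list whose midpoint lies in that window, 36 of 4589 peaks. The window was chosen by the position of the peaks themselves, so the number and the spacing of its peaks are descriptions and not tests. The study sequenced chromatin from whole embryos labelled 0 to 8 h, with 2 ChIP libraries and 2 input libraries. For ChIP, chromatin was precipitated with a crude polyclonal rabbit antibody to the N-terminal part of TCF, the product of pangolin (pan). The input libraries are DNA taken without this antibody. All 4 libraries come from the strain labelled Y cn bw sp and are of unknown sex, so the alleles are shared by all of them. On the X this strain carries y[1] and oc[R3.2]. On the second chromosome it carries cn[1], bw[1] and sp[1], as well as Gr22b[1] and Gr22d[1], and also CG33964[R4.2]. On the third it carries lab[R4.2] and LysC[1], besides MstProx[1] and GstD5[1], and Rh6[1]. The extraction protocol in the labels speaks of a later laying window than the stage label, and the stage label is used here.

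TCF is the DNA-binding partner of Armadillo (beta-catenin) in the Wingless (Wnt) pathway. With Armadillo it activates target genes, and without it TCF holds many of them down together with the corepressor Groucho. In the fly embryo Wingless signalling is needed for the precursors of the heart and of some body wall muscles, which form in the mesoderm under the ectodermal stripes of cells that secrete Wingless. The genes that name the window encode transcription factors with a homeodomain. That of tin (tinman) specifies the dorsal mesoderm and the heart, and that of bap (bagpipe) the muscle of the gut. Those of lbe and lbl (ladybird early and late) mark subsets of heart and muscle precursors, and that of slou (slouch) marks a set of muscle founder cells. The protein of C15 (clawless) is best known from the end of the leg.

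All 6 genes were found in the RefSeq gene table, which is on release 6 of the genome, and they lie on 3R in the order tin, bap, lbl, lbe, C15 and slou. That table lists 18 genes from tin to slou, of which 12 code for proteins and 6 are long noncoding RNAs. The 6 other protein-coding genes are Ugt49B2, CG7907, CheB93a and CheB93b between bap and lbl, Fancm between lbe and C15, and sp3 between C15 and slou. In release 6 the stretch from tin to slou is longer than 160 kb, and so is the stretch from bap to slou, while tin to C15 is shorter. The window is thus too short for all 6 genes unless the distances differ between releases. Positions were not carried over from release 6 to release 5, so peaks are not tied to single genes below.

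The window held 36 peaks, or 225 per Mb, against 37.3 per Mb on the rest of 3R (1035 peaks) and 38.1 per Mb on the rest of the 6 chromosome arms (4508 peaks). Its peaks covered 32.4 kb, or 20.3% of its length, against 2.59% on the rest of 3R and 2.68% on the rest of the arms. When the arms were cut into 738 stretches of 160 kb, the window ranked 2 by number of peaks and 2 by covered length. The cuts on 3R were placed so that the window is 1 stretch, and the other arms were cut from their start. Dense places elsewhere may thus be split between stretches, which favours the rank of the window. The median stretch held 5 peaks (quartiles 2 and 9) and had 1.81% of its length covered, and 84 stretches held none. The peaks come as 1 list for all 4 libraries, so none of these values has a replicate error.

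**Figure D1:**
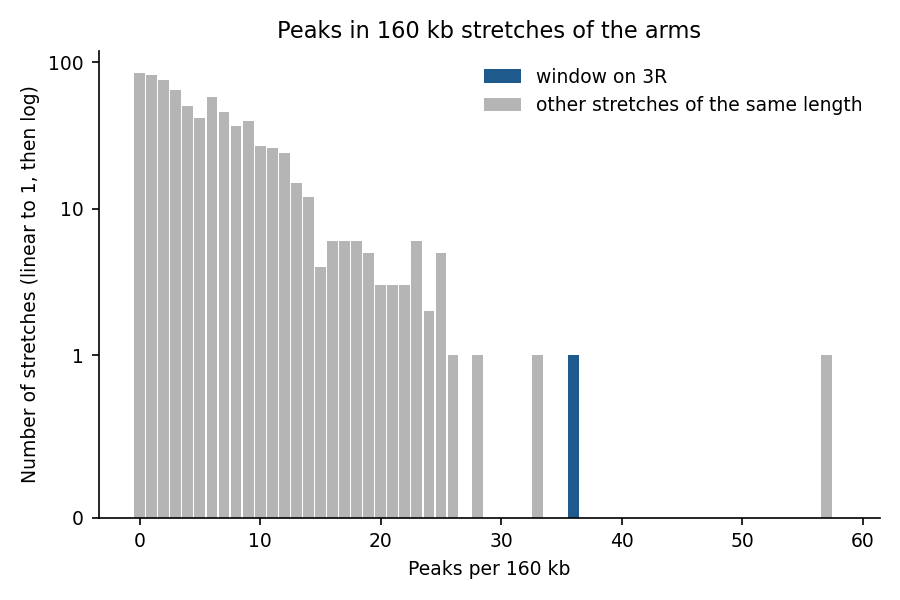
Number of 160 kb stretches of the 6 chromosome arms (vertical axis, linear to 1 and then logarithmic) by the number of TCF peaks in each (horizontal axis). The window on 3R, with 36 peaks, lies apart from the bulk of the stretches, whose median is 5, and only 1 stretch, with 57, held more.

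The surroundings of the window differ on its 2 sides. The preceding 160 kb of 3R held 2 peaks that covered 0.359% of it. The following 160 kb held 25 peaks that covered 13.2%, with a best score of 108.11. The last peaks before the window lay 140 and 15.0 kb from its edge, with scores of 9.38 and 17.96. The first peaks after it lay 10.8 and 37.4 kb from its edge, with scores of 16.93 and 49.45. The outermost members, at 17202259 to 17202497 and at 17346700 to 17347002, had scores of 11.02 and 14.95, so peaks just inside and just outside were alike in being weak, except the farther peak on the right. The dense stretch therefore begins inside the window on the left, whereas peaks go on beyond it on the right.

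Each peak carries 1 score, which the authors deposited without naming its scale. The scores of 4345 of the 4589 peaks (94.7%) equal, within 0.01, the -log10 of a Poisson upper tail at a whole-number pileup and an expected pileup of 71.7. For these peaks the pileup divided by 71.7 is given below as the implied fold. The same expectation of 71.7 serves for all of these matched peaks, so this fold does not compare ChIP with the local input. The pileup behind it is known to within 1, since the tail may include or leave out the observed value, and its exact Poisson 95% interval covers counting error only. Of the 36 members, 32 have an implied fold, and peaks 3, 20, 25 and 27, counted in order along 3R, have none. In whole embryos, strong TCF occupancy in few cells and weak occupancy in many cells cannot be told apart.

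Most members had low scores and a few had high ones, in shares close to those of the whole list. Of the 36 scores, 21 (58.3%) were under 20, against 59.3% of the whole list, and 7 lay from 20 to 40. The remaining 8 (22.2%) were over 40, against 20.8% of the list. A score over 100 was found for 3 members (8.33%), against 7.67% of the list. The median score was 14.6 (quartiles 10.95 and 30.0) in the window, 15.9 (10.6 and 30.8) on the rest of 3R and 15.9 (11.0 and 32.9) on the rest of the arms. The window is thus set apart by how many peaks it has and not by a higher median score. The scores come from the same peak call as the positions that chose the members, so no test was made on them.

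**Figure D2:**
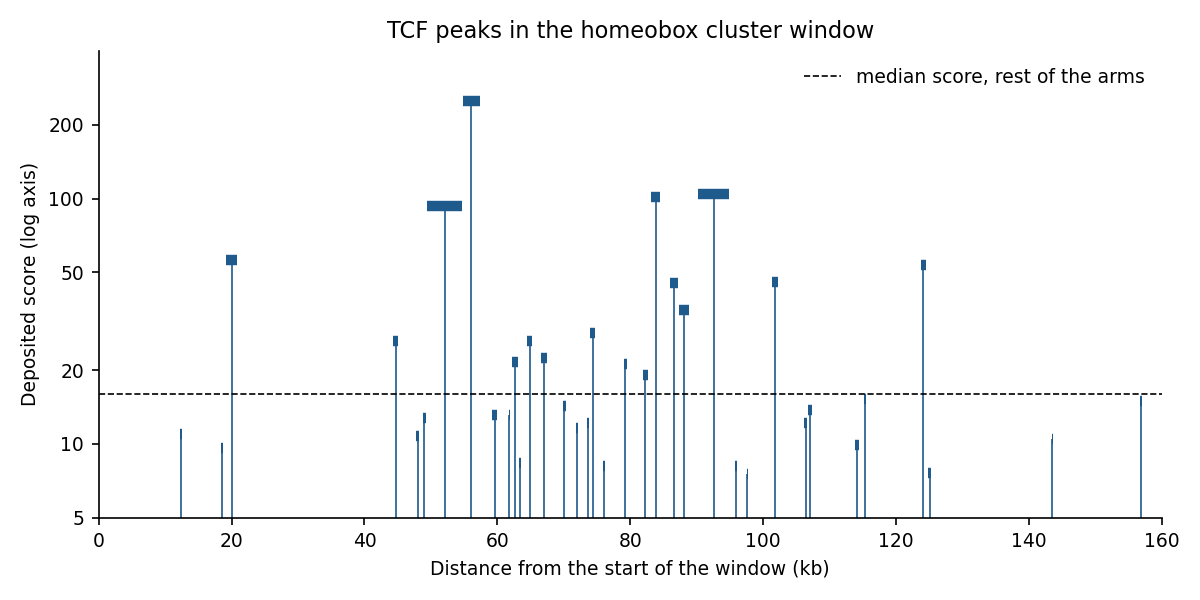
The 36 TCF peaks of the window by distance from its start in kb (horizontal axis) and deposited score (vertical axis, logarithmic). Each thick bar spans the width of a peak, thin lines mark its midpoint, and the dashed line is the median score of 15.9 on the rest of the arms. The strongest bars stand near 56, 84 and 93 kb, with weak peaks between them and few peaks toward either end.

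The peaks fell into 7 groups when neighbours with gaps of at most 5000 bp were joined, and 1 of these groups held 27 of the 36 peaks. This chain ran from 17234331 to 17297419, over 63.1 kb, of which 44.0% was covered. Among the 2337 such groups on the arms, 1426 of which are single peaks, it ranked 2 by number of peaks and 2 by length. Its 27 peaks had a median score of 19.0 (range 7.57 to 250.07) and a median width of 661 bp. The 9 members outside it had a median score of 11.0 (range 7.62 to 56.33) and a median width of 303 bp. Of the members with an implied fold, 5 of 24 in the chain and 1 of 8 outside it reached 3. Peak 25 in the chain and peak 3 outside it, with scores of 104.60 and 56.33, have no fold and are not counted. Counts this small do not establish a difference, and none was tested.

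The left end of the chain was led by a pair of wide peaks that nearly touched. Peak 8, at 17244766 to 17247349, had the highest score of the window, 250.07, and an implied fold of 7.17 (95% interval 6.56 to 7.81). It ranked 100 in the whole list and was 2584 bp wide. Peak 7, at 17239491 to 17244707, ended 58 bp before it. It was the widest member, with 5217 bp, and ranked 11 by width in the whole list, yet its score was 93.20, which ranked 381, and its implied fold 4.27 (3.80 to 4.77). The intervals of the 2 folds do not overlap. Together these neighbours form a nearly continuous stretch of 7.86 kb that holds 24.1% of the length covered in the window.

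Peaks with lower scores flanked this pair on either side. On the left, peak 4, at 17234331 to 17235057, opened the chain with a score of 26.21 and an implied fold of 2.50. It was followed by peaks 5 and 6 with scores of 10.74 and 12.77. On the right, peak 9 had a score of 13.08 and lay 1917 bp from the end of peak 8. Both immediate neighbours of the pair, peaks 6 and 9, thus scored below the median of the window.

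The middle of the chain was a run of small peaks. The 20 kb from 17250000 to 17270000 held 11 peaks, which covered 29.3% of them. Of 5927 windows of 20 kb, cut from the first base of each arm, 5 held at least 11 peaks and 3801 held none. The stretch from 17250000 to 17270000 is not itself among these windows. A cut between them falls inside it and splits its 11 peaks between neighbouring windows. Dense places elsewhere may be split in the same way, so this comparison favours the stretch and gives it no rank. The scores of these 11 peaks ran from 8.10 to 28.25, with a median of 14.3, and their widths from 201 to 947 bp. In order along 3R the scores were 13.08, 21.56, 8.35, 26.21, 22.31, 14.32, 11.59, 12.18, 28.25, 8.10 and 21.11. The highest of them, peak 18 at 17263905 to 17264748, had an implied fold of 2.57 (2.21 to 2.96) and began 53 bp after the end of peak 17, the shortest gap in the window. The median score of these 11 peaks was near the 14.6 of the window and the 15.9 on the rest of the arms. What the stretch lacked was a high score, as its best was 28.25.

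**Figure D3:**
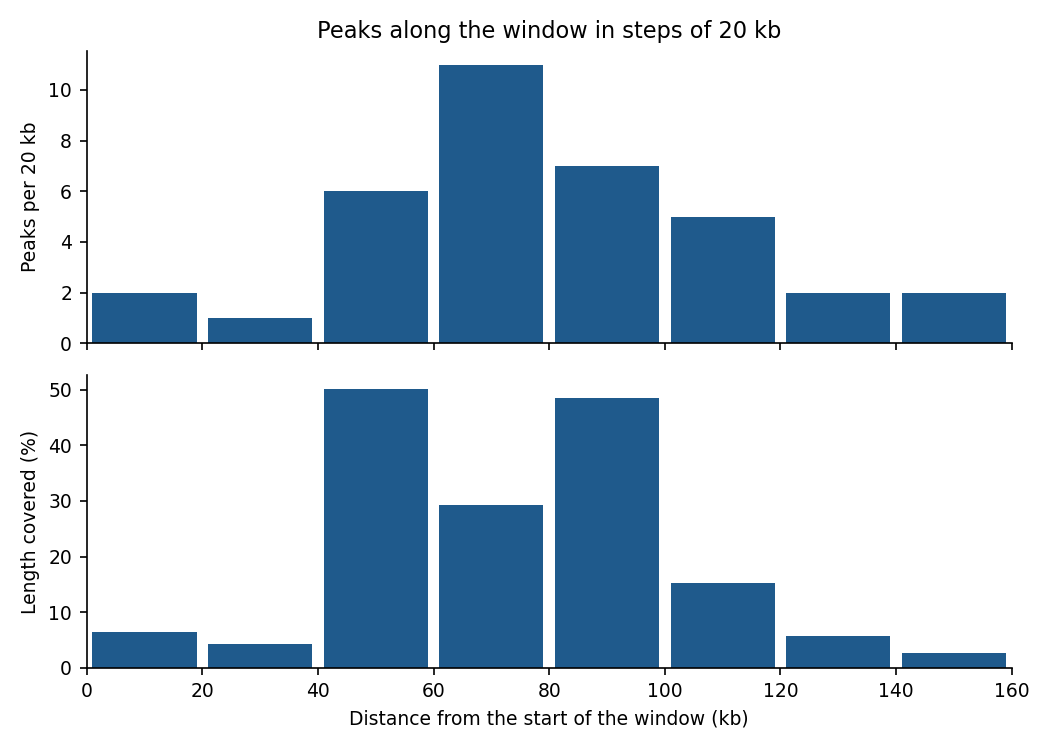
Number of TCF peaks (upper panel) and percent of length covered by peaks (lower panel) in the 8 consecutive windows of 20 kb, by distance from the start of the window in kb. The count is highest, at 11, from 60 to 80 kb, while coverage is highest on either side of it, at 50.1% and 48.5%.

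The right part of the chain held a second group of strong peaks. The 20 kb from 17270000 to 17290000 held 7 peaks that covered 48.5%, with a median score of 35.2. Peak 21, the first of these 7, had a score of 19.01. Peak 22, at 17273155 to 17274496, had a score of 101.54 and an implied fold of 4.45 (3.97 to 4.96), an interval that overlaps that of peak 7. Peak 23, at 17276009 to 17277190, had a score of 45.07 and an implied fold of 3.08 (2.69 to 3.51). Peak 24 followed after 223 bp, at 17277414 to 17278834, with a score of 35.17 and an implied fold of 2.79 (2.42 to 3.20). The intervals of peaks 23 and 24 overlap, and a difference between these neighbours was not tested.

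Peak 25 lay next, at 17280240 to 17284848, with 4609 bp and a score of 104.60. It ranked 2 in the window by score and by width, and 14 by width in the whole list. Its score does not match the fitted expectation, so no fold is given. Its midpoint lay 36.5 kb from that of peak 8 and 8.72 kb from that of peak 22. Peaks 26 and 27 after it were among the weakest of the window, with scores of 8.10 and 7.57. Past peak 25, peak 28 was the only member of the chain with a score over 20.

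Past this point peaks thinned out. Peak 28, at 17291278 to 17292283, stood alone between gaps of 3551 and 3911 bp, with a score of 45.56 and an implied fold of 3.09 (2.70 to 3.53). Peaks 29 and 30, which are 71 bp apart, had scores of 12.18 and 13.69, and peak 30, at 17296704 to 17297419, ends the chain. The following pair, peaks 31 and 32, spanned 17303781 to 17305474 with scores of 9.92 and 15.28. Peaks 33 and 34 spanned 17313764 to 17315271 with scores of 53.71 and 7.62. Peak 33, at 17313764 to 17314501, reached an implied fold of 3.32 (2.91 to 3.77), and no other peak past the chain on this side reached 3. It was 738 bp wide, narrower than peaks 23 and 28 whose scores were lower.

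Peaks were sparser toward the ends of the window than in the chain, but not sparse for the arms. The first and the last 20 kb held 2 peak midpoints each, with 6.4% and 2.64% covered, against 2.68% on the rest of the arms. Of the 5927 windows of 20 kb on the arms, 3801 held no peak. On the left, peak 1 had a score of 11.02, and peaks 2 and 3 spanned 17208382 to 17210861 with scores of 9.65 and 56.33. Peak 3, at 17209236 to 17210861, was 1626 bp wide and ranked 5 in the window by score and 4 by width. It has no implied fold. The longest peak-free stretch, 23.5 kb, separated it from the chain. On the right, peak 35, at 17333430 to 17333654, had a score of 10.46 and lay between peak-free stretches of 18.2 and 13.0 kb, and peak 36 had a score of 14.95. A single strong peak stood on each side of the chain, peak 3 on the left and peak 33 on the right.

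Neighbouring peaks were close. Of the 35 gaps between members, 4 were under 200 bp, 14 were under 1000 bp, 15 lay from 1000 to 5000 bp and 6 were longer, and the median was 1434 bp. For 33 of the 36 members (91.7%) the nearest other midpoint was at most 5000 bp away, against 67.5% on the rest of 3R and 65.8% of all arm peaks, values that the choice of a dense window raises by itself. The median distance to the nearest midpoint was 1531 bp in the window, 2084 bp on the rest of 3R and 2352.5 bp on the rest of the arms. The difference from the other peaks lay mostly in the upper quartile, which was 2426 bp in the window, 7932 bp on the rest of 3R and 8202 bp on the rest of the arms.

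The covered length was concentrated in few peaks. The 5 widest members, peaks 7, 25, 8, 3 and 24, made up 47.7% of it, and on the rest of the arms the same share of the widest peaks, 627 of 4508, made up 37.6%. Widths over 2000 bp were found for 3 of 36 members (8.33%), against 3.68% of the whole list, and widths over 4000 bp for 2 of 36 members and 19 of the 4508 other arm peaks. The median width was 544.5 bp (quartiles 296 and 927) in the window, 504 bp (303 and 852) on the rest of 3R and 503 bp (309 and 866) on the rest of the arms. Against the other arm peaks the difference thus lies in the few widest members, while the median widths are close. With 3 and 2 members past these widths, the shares do not establish a difference, and none was tested. The fullest 160 kb stretch of the arms, on 2L from 14400000, had 9 of 57 peaks (15.8%) over 2000 bp and 2 over 4000 bp. The third fullest, on 2R from 2400000, had 1 of 33 (3.03%) over 2000 bp and 0 over 4000 bp.

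Peaks 7 and 25 were wide for their scores. Outside the window, 75 arm peaks had a score from 90 to 110, and their median width was 1207 bp, their upper quartile 1770 bp and their maximum 3787 bp. Neither of the 5217 bp of peak 7 and the 4609 bp of peak 25 was reached by any of these 75 peaks. This depends on the range for peak 25, which has no implied fold. Among 181 other peaks with an implied fold from 4 to 5, the widest had 4931 bp, more than peak 25 and less than peak 7. Peak 22, the remaining member in that range of scores, was 1342 bp wide, and 34 of the 75 were at least as wide. Across the 36 members Spearman's rho of score and width was 0.85, and it was 0.81 on the rest of 3R (1035 peaks). Both values are descriptions across peaks that share their libraries and their peak call.

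**Figure D4:**
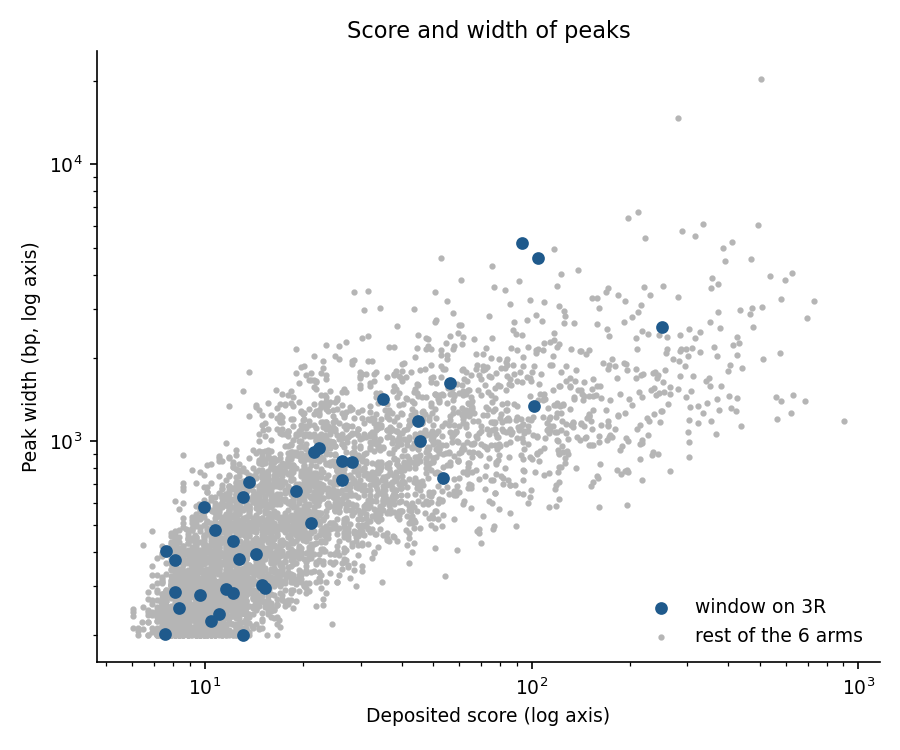
Width in bp (vertical axis, logarithmic) against deposited score (horizontal axis, logarithmic) for the 36 peaks of the window and the 4508 other peaks of the 6 arms. Most members lie within the cloud of other peaks, while peaks 7 and 25, with scores of 93.20 and 104.60, lie at its upper edge with widths of 5217 and 4609 bp.

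On the scale of implied fold the members ran from 1.70 to 7.17 with a median of 2.02 (quartiles 1.88 and 2.51, n = 32). The median was 2.11 on the rest of 3R (quartiles 1.86 and 2.63, n = 983) and 2.11 on the rest of the arms (1.88 and 2.72, n = 4272). An implied fold of at least 3 was reached by 6 of 32 members, or 18.8% (exact Clopper-Pearson 95% interval 7.21 to 36.4), against 19.7% of the whole list. Left out are the 4 members without a fold, among them peaks 25 and 3, with scores of 104.60 and 56.33. The member share thus omits 2 high-scoring peaks. Peak 23, with a lower score of 45.07, had a fold of 3.08. Since peaks 25 and 3 do not match the expectation of 71.7, it is not known whether they would reach 3. The share of the list likewise leaves out 244 peaks without a fold. A fold of at least 2 was reached by 17 of 32 members (53.1%), against 59.6% of the list, and a fold of at least 5 by 1 of 32 (3.13%), against 5.55%. The share of the list at a fold of 3 lies inside the interval of the members. Nothing is read from them about TCF at these genes, since the same peak call gave the positions and the scores.

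**Figure D5:**
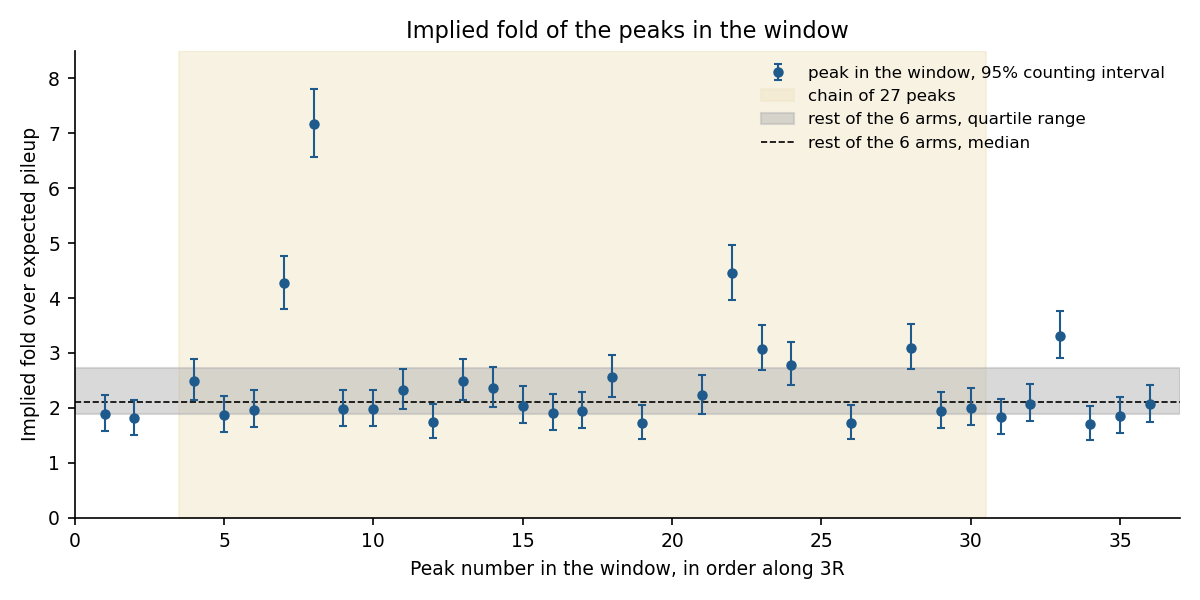
Implied fold over the expected pileup of 71.7 (vertical axis) for the 32 members with a fold, by peak number in order along 3R. Points are single peaks with 95% counting intervals, the grey band and dashed line are the quartiles and median of the rest of the arms, and shading marks the chain of 27 peaks. Peak 8 stands alone at 7.17, peaks 7 and 22 follow at 4.27 and 4.45, and most members lie within or below the grey band.

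The fullest and the third fullest stretch of 160 kb serve as a measure of how other crowded places look. The window had 36 peaks with 20.3% covered and a best score of 250.07. The stretch on 2L from 14400000 to 14560000 had 57 peaks with 41.2% covered and a best score of 410.65. The stretch on 2R from 2400000 to 2560000 had 33 peaks with 13.2% covered and a best score of 125.57. The median width was 544.5 bp in the window, 756 bp in the stretch on 2L and 495 bp in that on 2R. The median score was 14.6 in the window, 15.3 in the stretch on 2L and 14.0 in that on 2R. An implied fold of at least 3 was found for 6 of 32 peaks in the window, 11 of 57 in the stretch on 2L and 3 of 30 in that on 2R. By best score the window ranked 85 among the 738 stretches, far below its rank by number.

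Among the 23 chains on the arms with at least 10 peaks, the chain of 27 was ordinary in height. Its best score of 250.07 ranked 10 of 23, where the median best score was 212. Its median score of 19.0 compares with a range of 10.8 to 29.3 and a median of 16.0 over the 23 chains. Its covered share of 44.0% ranked 14, where the range was 23.2% to 73.5%. The chain thus stood near the top of the arms in number and length, and near the middle of these 23 in height and coverage.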

How the data were processed

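Chromatin from embryos of 0 to 8 h was sequenced as 2 TCF ChIP and 2 input libraries. Per the file headers, the deposited peak list is on FlyBase release 5 with MACS as its feature source. The build BDGP5 and the tools MACS2, BWA and CASAVA (versions 1.7.0.2 and 1.7.0.3) are named, with no role, per the submitters' processing notes. What threshold and filters applied, and any pooling, is not given in the sources used here. The authors deposited 1 score per peak, without a scale, for all libraries together, so the depth is unknown and replicates could not be compared. Whether replicates came from separate embryo collections is not stated.

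Peaks with midpoints in the window were counted, and gaps, chains (gaps of at most 5000 bp) and covered length were computed. The expected pileup was searched from 1 to 400. The search was tested on 3 simulated lists and came within 0.00276% of the true value. Those lists were drawn largely from the same Poisson tail, so this checks the search and not whether the deposited scores follow that tail. For the deposited scores, the best of the other expectations examined matched 37.4% of the peaks. Arm length was the end of the last peak. Of the peaks, the 10 with the highest score and the 5 widest were to be named, with the ends of each chain. The members and lists were chosen with earlier results of these data known. No test across peaks was made. The planned motif search, protein comparison and heart and muscle gene list were not run, as their sequences are not used here. Scripts ran in Python 3.11.15 with pandas 2.3.3, SciPy 1.17.1, NumPy 2.4.6 and, for plots, matplotlib 3.10.9.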

Additional observations from a re-analysis of the deposited data

How the results depend on the processing

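Of 51 values of 8 results under alternatives, 35 stayed within 1.5 times the value given (counts and ratios) or within its 95% binomial interval (medians and shares). Merging peaks closer than 1000 bp left 22 peaks, with a median width of 976.5 bp, a median spacing of 4174 bp and a longest chain of 16. Keeping the 50% of peaks with the higher score left 16 peaks, a median width of 976.5 bp, a spacing of 3499 bp and a chain of 7. Keeping the 25% with the highest score left 9 peaks that covered 19725 bp, a median width of 1421 bp, a spacing of 3959 bp and a chain of 4. Fewer peaks enter these by construction. With gaps of at most 2000 bp the longest chain held 10 peaks. The share of peaks past the fold was 53.1% at 2-fold and 3.13% at 5-fold. The density in the window was 5.91 times that on the rest of the arms, and from 4.90 to 5.93 times in the merged and higher-scoring lists, an alternative added after the data were seen. Member choice by any overlap, and widening or narrowing the window by 20 kb at each end, moved no value past these limits. A window displaced as a whole was not tried. No paired analysis was possible because 1 peak list serves all libraries, which also prevented leaving out a replicate. Depth is unknown, so a place without a peak is not shown to be free of TCF.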
